A study of Homo sapiens with 12 samples.

Results

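The 40 genes described here encode the mitotic kinases, cyclins, spindle checkpoint, kinetochore and cytokinesis proteins of a dividing cell, out of 35741 genes in the deposited table. They are a list of gene symbols, drawn up with earlier results of these data known and without the kinesins other than CENPE, and all 40 were found. The samples were mRNA libraries of U87 cells, an established human glioblastoma line of wild-type genotype per the labels, in 4 groups of 3. Untreated cells served as control. PNA-10b cells received sgPNA-10b and PNA-21 cells received sgPNA-21, each at 150 nM in bioadhesive nanoparticles (BNP in the labels), for 72 h. PNA-10b+21 cells received both, 150 nM of each, so this arm carried the dose of both single arms. Peptide nucleic acids carry DNA bases on an uncharged, peptide-like backbone, and the anti-seed strands used here were made to pair with the seed of miR-10b or miR-21. Neither empty nanoparticles nor a control strand is described in the labels, so the effects of the carrier and of the strand cannot be told apart. They also do not say whether replicates were separate cultures, so the p-values measure the spread between these libraries, which may be technical.

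Entry into mitosis is driven by CDK1 bound to cyclin A or B, which CDC25 phosphatases switch on. Polo and Aurora kinases then build the spindle, and kinetochores couple chromosomes to its microtubules. Until every kinetochore is attached, the spindle assembly checkpoint holds back CDC20 and the anaphase-promoting complex, whose activity destroys cyclin B and securin and frees separase to part the sister chromatids. Messenger RNAs of these genes peak in G2 and M. Their promoters are known for a cell cycle homology region (CHR), read by MuvB-containing complexes, B-MYB and FOXM1, often with CCAAT boxes that bind NF-Y.

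The CHR and CCAAT letters recur in the members' promoters, and 7 windows are printed because they show that arrangement in members of differing roles. Each runs from 110 bases before to 20 bases into the transcript, 5′ to 3′ on the gene's strand, as RefSeq gives it for GRCh38.p14. Capitals mark TTTGAA, the CHR letters, and CCAAT or its reverse complement ATTGG.
PLK1 promoter, chr16:23678779-23678908, plus strand: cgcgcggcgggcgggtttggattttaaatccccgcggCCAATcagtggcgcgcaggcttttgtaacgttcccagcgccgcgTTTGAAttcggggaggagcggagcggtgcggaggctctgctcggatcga
CCNB2 promoter, chr15:59105036-59105165, plus strand: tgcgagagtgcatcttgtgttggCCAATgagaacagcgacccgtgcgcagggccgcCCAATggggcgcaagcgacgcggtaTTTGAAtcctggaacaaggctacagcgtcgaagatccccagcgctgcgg
CDCA8 promoter, chr1:37692406-37692535, plus strand: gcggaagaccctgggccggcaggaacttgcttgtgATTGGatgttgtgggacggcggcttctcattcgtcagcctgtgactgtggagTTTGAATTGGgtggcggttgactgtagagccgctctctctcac
ESPL1 promoter, chr12:53268189-53268318, plus strand: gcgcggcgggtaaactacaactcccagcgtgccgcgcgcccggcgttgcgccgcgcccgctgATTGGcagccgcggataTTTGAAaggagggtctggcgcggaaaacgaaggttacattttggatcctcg
HMMR promoter, chr5:163460522-163460651, plus strand: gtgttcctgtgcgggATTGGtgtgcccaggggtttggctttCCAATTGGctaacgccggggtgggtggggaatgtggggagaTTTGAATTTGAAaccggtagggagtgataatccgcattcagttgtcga
MKI67 promoter, chr10:128126404-128126533, minus strand: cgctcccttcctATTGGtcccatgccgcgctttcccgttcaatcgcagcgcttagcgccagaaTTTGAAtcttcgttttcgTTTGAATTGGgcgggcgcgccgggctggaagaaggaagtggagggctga
PRC1 promoter, chr15:90994516-90994645, minus strand: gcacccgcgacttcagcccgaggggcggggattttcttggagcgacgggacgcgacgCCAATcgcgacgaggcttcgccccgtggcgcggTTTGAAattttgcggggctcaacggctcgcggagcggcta
The microRNA named by the labels whose mature strand is printed is hsa-miR-21-5p (RefSeq, MIR21, chr17:59841273-59841294, plus strand), with its seed, bases 2 to 8, in capitals. The 25-base stretches under it are the matches to that seed, ATAAGCT in capitals, in the longest annotated 3′ UTRs of the members.
hsa-miR-21-5p: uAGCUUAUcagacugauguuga
ESPL1 site: atagactcccATAAGCTcctccgaa
SGO1 site: tcttttaattATAAGCTtctggcat
Only these 2 of 40 members (5.0%) held ATAAGCT there, against 1336 of 12262 tested genes with a 3′ UTR (10.9%). The members' 3′ UTRs were shorter, with a median of 846.5 bases against 1650 bases. Both are matches of letters and were not measured as sites. The ESPL1 match lies at bases 2759 to 2765 of a 3′ UTR of 6458 bases, in a gene of 8890 exonic bases. Whether these bases are coding in other transcripts of ESPL1 was not checked, so its match may not lie in a usual 3′ UTR.

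Library totals ran from 12846676 to 18305820 counts. Levels are given as CPM, counts scaled to library size, with TMM-scaled library sizes, and differences as log2 fold changes ± standard error from edgeR's quasi-likelihood test, fitted to 15715 genes in all 12 libraries. Genes passed where the p-value, adjusted over those genes by Benjamini-Hochberg, was under 0.05. The cultures expressed VIM and CD44, mesenchymal markers typical of this line, at control means of 1842 and 1454 CPM. The astroglial and stem cell markers GFAP, S100B and SOX2 were low, with control means of 4.09, 0.136 and 0.0223 CPM. The other glioma markers read, NES and OLIG2, had control means of 15.8 and 1.65 CPM. NES passed as lower with PNA-10b (-0.37) and PNA-21 (-0.53), and GFAP with PNA-21 (-1.10) and both (-1.09). CD44 passed as lower with both (-0.13), and OLIG2 as higher with PNA-21 (0.64). Of the markers of other cell types, 4 neuron markers summed to 85.1 to 93.9 CPM in control and 67.5 to 75.5 CPM in PNA-10b+21, nearly all SNAP25. In the same groups 4 microglia and blood markers summed to 17.4 to 18.4 and 11.5 to 13.2 CPM, nearly all CSF1R. Endothelial markers summed to at most 12.7 CPM and epithelial markers to at most 4.48 CPM in any library, with CDH1 at 0 in control. The part of these shifts in the results was not tested.

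The members rose together in all 3 treated arms. With PNA-10b, 26 of 38 tested members passed as higher and none as lower, where 2.75% of all genes tested passed as higher and 3.74% as lower. With PNA-21, 35 members passed as higher and none as lower, against 15.2% and 14.6% of all genes. With both strands it was 36 and 0, against 13.6% and 13.4%. The median log2 fold change of the members was 0.27, 0.35 and 0.38 in the 3 arms (1.21-, 1.27- and 1.30-fold), while the median over all genes tested was -0.00149, -0.00621 and -0.00326. All 38 tested members had a positive log2 fold change in each arm. These are bulk libraries, so a larger share of cells in G2 and M and more transcript in each such cell cannot be told apart.

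The PNA-10b count depended on single libraries. Leaving out control replicate 1 or 3 made it 15 or 11, and leaving out PNA-10b replicate 1 or 2 made it 16 or 6, while the median stayed between 0.24 and 0.31. The 6 members that kept their PNA-10b call under every one of 20 alternative settings were AURKA, BUB1, BUB1B, CDCA8, ECT2 and SGO1. In the PNA-21 arm 31 members kept theirs, and in the combined arm 33 did.

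**Figure D1:**
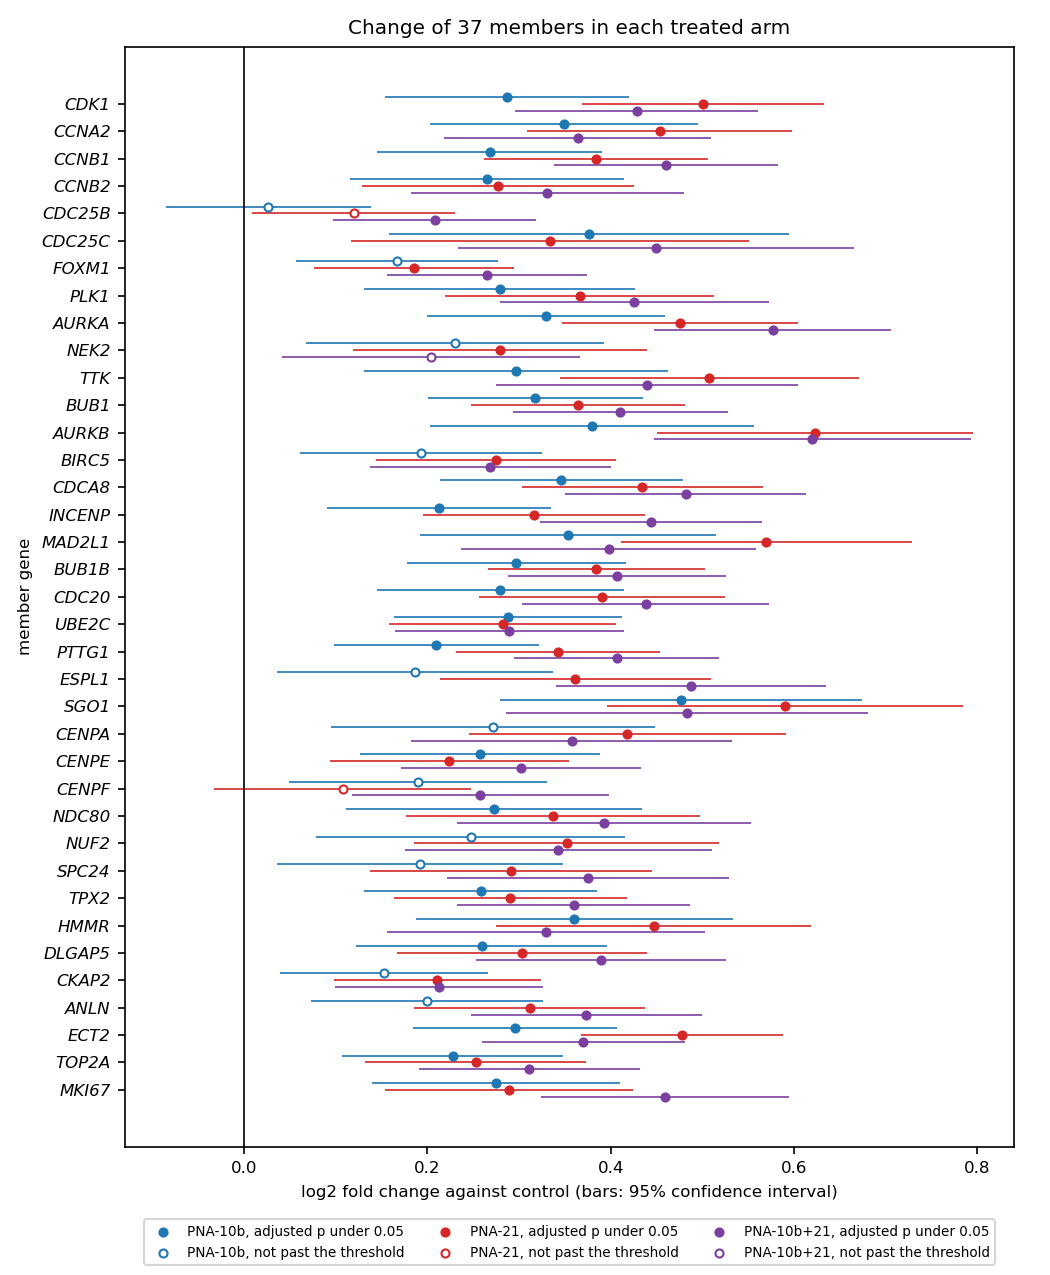
Log2 fold change against control (x axis) of 37 tested members (y axis, ordered by role) in each treated arm. Points are estimates of the fit to 12 libraries, bars are 95% confidence intervals, and open points did not pass at an adjusted p of 0.05. PRC1 is left out because its interval is several times wider. The points lie to the right of 0, and the open ones are mostly PNA-10b.

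Separation between libraries gave a similar picture. Every treated library lay above every control library for 32 of 38 members with PNA-10b, where this held for 11.0% of all genes. It held for 37 members with PNA-21 (21.5% of all genes) and for 37 with both (20.3%). The members that overlapped control were CDC25B, CENPF, ESPL1, NDC80, NEK2 and PRC1 with PNA-10b, CENPF with PNA-21, and PRC1 with both.

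**Figure D2:**
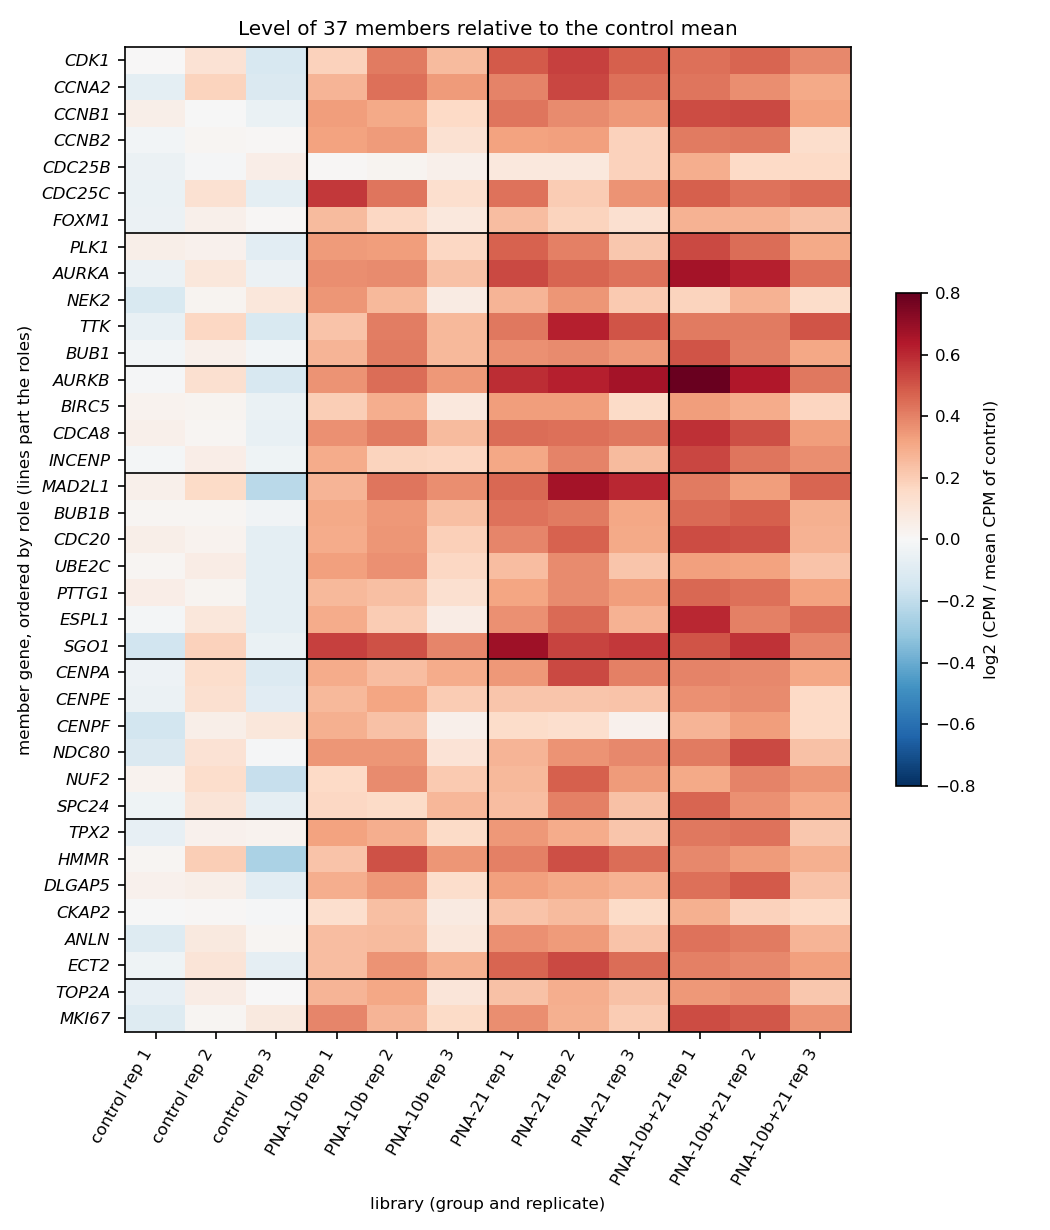
Level of 37 members (rows, ordered by role) in each of 12 libraries (columns), as log2 of CPM over the mean CPM of the 3 control libraries. Darker red is higher. The treated libraries are red for nearly every member, and replicate 3 is paler than replicates 1 and 2 within PNA-10b and PNA-10b+21.

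The cyclin and CDK1 switch rose in each arm, with 5, 6 and 7 of its 7 members passing with PNA-10b, PNA-21 and both. CCNB1 (ENSG00000134057, chr5:69167010-69178245, plus strand) encodes cyclin B1, the partner that brings CDK1 activity to its mitotic peak. CCNB1 stood at 205, 198 and 191 CPM in the control libraries, 249.5, 245 and 221 with PNA-10b, 266, 257 and 252 with PNA-21 and 284, 286 and 248 with both. Every treated library exceeded the highest control. Its log2 fold change was 0.27 ± 0.06 with PNA-10b (adjusted p = 0.00840), 0.38 ± 0.06 with PNA-21 (adjusted p = 6.11e-05) and 0.46 ± 0.06 with both (adjusted p = 7.48e-06). CDK1 (ENSG00000170312, chr10:60778331-60794852, plus strand), the catalytic subunit itself, rose most with PNA-21. In control, CDK1 measured 80.8, 87.1 and 73.6 CPM, with 91.4, 108 and 96.1 in PNA-10b, 113, 118 and 112 in PNA-21 and 109, 111 and 105 in PNA-10b+21. All 3 PNA-21 libraries lay above all 3 libraries given both strands. Its log2 fold change was 0.29 ± 0.06 with PNA-10b (adjusted p = 0.00904), 0.50 ± 0.06 with PNA-21 (adjusted p = 7.27e-06) and 0.43 ± 0.06 with both (adjusted p = 3.93e-05).

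Of the other switch genes, CCNA2, which encodes cyclin A2, and CCNB2, which encodes cyclin B2, passed in all arms, with changes of 0.35, 0.45 and 0.36, and of 0.26, 0.28 and 0.33. CDC25C, a phosphatase that removes the inhibitory phosphates of CDK1, also passed in all, at 0.38, 0.33 and 0.45. FOXM1, a transcription factor of G2 and M genes, had 0.17 ± 0.05 with PNA-10b (adjusted p = 0.0649) and passed with PNA-21 (0.19) and both (0.26). CDC25B, the phosphatase that starts CDK1 activation, moved least of all in the PNA-10b arm. The levels of CDC25B were 69.05, 70.7 and 73.8 CPM in control, 71.7, 72.3 and 73.2 with PNA-10b, 75.4, 75.5 and 80.7 with PNA-21 and 87.2, 79.4 and 79.6 with both strands. The PNA-10b libraries lay within the control range, and the libraries given both strands lay above it. Its change was 0.03 ± 0.05 with PNA-10b (adjusted p = 0.845), 0.12 ± 0.05 with PNA-21 (adjusted p = 0.0993) and 0.21 ± 0.05 with both (adjusted p = 0.00602), so that it passed with both strands only among the 3 comparisons with control.

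Of the 5 mitotic kinases 4 rose with PNA-10b, 5 with PNA-21 and 4 with both. AURKA (ENSG00000087586, chr20:56369389-56392337, minus strand) encodes Aurora A, the centrosomal kinase that matures spindle poles, and had the smallest p of the kinases in the combined arm. AURKA reached 137, 138 and 125 CPM with PNA-10b, 153, 146 and 143 with PNA-21 and 168, 163 and 143 with both, from 102, 113 and 103 in control. The groups stepped up from control to PNA-10b to PNA-21 with no overlap, and the combined libraries overlapped PNA-21. The change was 0.33 ± 0.06 with PNA-10b (adjusted p = 0.00276), 0.48 ± 0.06 with PNA-21 (adjusted p = 1.01e-05) and 0.58 ± 0.06 with both (adjusted p = 8.84e-07). BUB1 (ENSG00000169679, chr2:110637698-110678114, minus strand) is a checkpoint kinase that phosphorylates histone H2A at centromeres. BUB1 stood at 95.6, 99.7 and 95.3 CPM in the control libraries, 117, 129 and 116 with PNA-10b, 125, 126 and 123 with PNA-21 and 137, 129 and 120.1 with both. No treated library fell into the control range, while the treated arms overlapped each other. The change was 0.32 ± 0.06 with PNA-10b (adjusted p = 0.00167), 0.36 ± 0.06 with PNA-21 (adjusted p = 6.65e-05) and 0.41 ± 0.06 with both (adjusted p = 1.64e-05).

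PLK1, the polo kinase of mitotic entry and cytokinesis, rose by 0.28, 0.37 and 0.43, and TTK, the checkpoint kinase also called MPS1, by 0.30, 0.51 and 0.44. NEK2, a kinase that splits the centrosome pair, was the exception. In control, NEK2 measured 26.6, 29.3 and 30.8 CPM, with 36.95, 34.6 and 30.2 in PNA-10b, 35.00, 36.9 and 33.4 in PNA-21 and 32.7, 35.1 and 32.1 in PNA-10b+21. PNA-10b replicate 3 fell below the highest control. The change of NEK2 was 0.23 ± 0.08 with PNA-10b (adjusted p = 0.0839), 0.28 ± 0.08 with PNA-21 (adjusted p = 0.00931) and 0.20 ± 0.08 with both (adjusted p = 0.0575), and of the 3 comparisons with control it passed in the PNA-21 arm.

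The chromosomal passenger complex consists of the kinase Aurora B (AURKB) and 3 partners that place it at centromeres and later at the midzone: INCENP, borealin (CDCA8) and survivin (BIRC5). All 4 rose with PNA-21 and with both, and 3 with PNA-10b. AURKB had the largest change of the members in the PNA-21 and combined arms. The levels of AURKB were 25.00, 27.5 and 23.00 CPM in control, 32.3, 34.2 and 32.00 with PNA-10b, 37.95, 38.8 and 39.98 with PNA-21 and 43.4, 39.2 and 33.7 with both strands. The lowest treated library exceeded the highest control. Its change was 0.38 ± 0.08, 0.62 ± 0.08 and 0.62 ± 0.08 in the 3 arms, and 0.62 is a 1.54-fold rise. INCENP reached 80.9, 74.6 and 74.2 CPM with PNA-10b, 81.7, 86.7 and 78.5 with PNA-21 and 95.5, 88.7 and 85.1 with both, from 65.1, 68.5 and 64.2 in control. INCENP (ENSG00000149503, chr11:62123973-62153163, plus strand) had all treated libraries above control, and the combined libraries, except replicate 3, above every PNA-21 library. Its change was 0.21 ± 0.06 with PNA-10b (adjusted p = 0.0320), 0.32 ± 0.06 with PNA-21 (adjusted p = 0.000371) and 0.44 ± 0.06 with both (adjusted p = 1e-05). CDCA8 stood at 54.2, 53.2 and 50.6 CPM in the control libraries, 67.9, 70.3 and 62.9 with PNA-10b, 71.8, 71.4 and 70.6 with PNA-21 and 79.02, 75.4 and 66.4 with both. CDCA8 (ENSG00000134690, chr1:37692418-37709719, plus strand) was likewise above control in each treated library. Its change was 0.35 ± 0.06 with PNA-10b (adjusted p = 0.00224), 0.43 ± 0.06 with PNA-21 (adjusted p = 3.51e-05) and 0.48 ± 0.06 with both (adjusted p = 1.05e-05). BIRC5 had 0.19 ± 0.06 with PNA-10b (adjusted p = 0.0742) and passed at 0.27 in both other arms.

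Checkpoint and sister separation genes rose in all 7 cases with PNA-21 and with both, and in 6 of 7 with PNA-10b. PTTG1 (ENSG00000164611, chr5:160421822-160428744, plus strand) encodes securin, the inhibitor of separase that the anaphase-promoting complex destroys. In control, PTTG1 measured 141, 137 and 128 CPM, with 162, 160.1 and 148 in PNA-10b, 169, 175 and 171 in PNA-21 and 186, 184 and 169 in PNA-10b+21. The control, PNA-10b and PNA-21 libraries formed 3 separate ranges. Its change was 0.21 ± 0.05 with PNA-10b (adjusted p = 0.0218), 0.34 ± 0.05 with PNA-21 (adjusted p = 7.36e-05) and 0.41 ± 0.05 with both (adjusted p = 1.09e-05). BUB1B (ENSG00000156970, chr15:40161023-40221136, plus strand) encodes BUBR1, a subunit of the mitotic checkpoint complex that inhibits CDC20. The levels of BUB1B were 79.2, 79.1 and 76.8 CPM in control, 96.5, 99.7 and 92.6 with PNA-10b, 106, 104 and 96.96 with PNA-21 and 107, 109 and 95.4 with both strands. The control libraries lay close together, and every treated library lay above them. The change was 0.30 ± 0.06 with PNA-10b (adjusted p = 0.00323), 0.38 ± 0.06 with PNA-21 (adjusted p = 4.34e-05) and 0.41 ± 0.06 with both (adjusted p = 2.15e-05).

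CDC20, the activator of the anaphase-promoting complex, rose by 0.28, 0.39 and 0.44. UBE2C, the ubiquitin-conjugating enzyme of that complex, rose by nearly the same amount in each arm, 0.29, 0.28 and 0.29. MAD2L1, which encodes the checkpoint protein MAD2, rose by 0.35, 0.57 and 0.40. SGO1, shugoshin, which guards centromeric cohesion, rose by 0.48, 0.59 and 0.48 and had the largest change of the members with PNA-10b. ESPL1, separase, had 0.19 ± 0.07 with PNA-10b (adjusted p = 0.137) and rose by 0.36 and 0.49 in the other arms. The 2 members with an ATAAGCT match in the longest annotated 3′ UTR, ESPL1 and SGO1, thus had PNA-21 changes of 0.36 and 0.59. The member median was 0.35. SGO1 overlaps an antisense gene over 17.7% of its exonic length, and whether the counting used strand is not given in the sources used here.

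Of the 7 centromere and kinetochore genes 6 were tested, and 2, 5 and 6 passed as higher in the 3 arms. NDC80 (ENSG00000080986, chr18:2571511-2616635, plus strand) encodes the microtubule-binding subunit of the outer kinetochore. NDC80 reached 77.5, 77.3 and 65.4 CPM with PNA-10b, 73.1, 77.6 and 79.2 with PNA-21 and 80.7, 87.3 and 71.3 with both, from 56.04, 65.6 and 60.2 in control. PNA-10b replicate 3 was just below the highest control, and the other treated libraries lay above it. The change was 0.27 ± 0.08 with PNA-10b (adjusted p = 0.0377), 0.34 ± 0.08 with PNA-21 (adjusted p = 0.00238) and 0.39 ± 0.08 with both (adjusted p = 0.000661). SPC24 (ENSG00000161888, chr19:11131520-11155808, minus strand) encodes a subunit at the inner end of the same complex. SPC24 stood at 23.5, 25.9 and 23.00 CPM in the control libraries, 27.1, 26.8 and 29.00 with PNA-10b, 28.7, 31.96 and 28.4 with PNA-21 and 33.3, 31.1 and 29.7 with both. No treated library fell into the control range, although the PNA-10b change did not pass. That change and those of the other arms were 0.19 ± 0.07 with PNA-10b (adjusted p = 0.140), 0.29 ± 0.07 with PNA-21 (adjusted p = 0.00515) and 0.37 ± 0.07 with both (adjusted p = 0.000687).

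NUF2, the direct partner of NDC80, had 0.25 ± 0.08 with PNA-10b (adjusted p = 0.0742) and rose by 0.35 and 0.34. CENPA, the histone H3 variant of centromeres, had 0.27 ± 0.08 with PNA-10b (adjusted p = 0.0600) and rose by 0.42 and 0.36. CENPE, a kinetochore motor, rose by 0.26, 0.22 and 0.30. CENPF, a large protein of the outer kinetochore in G2 and M, was the least changed with PNA-21. In control, CENPF measured 205, 235 and 243 CPM, with 277, 267 and 234 in PNA-10b, 252, 250.3 and 234 in PNA-21 and 275, 287 and 254 in PNA-10b+21. Its control libraries spread widely, and libraries of both single arms fell within their range. Its change was 0.19 ± 0.07 with PNA-10b (adjusted p = 0.102), 0.11 ± 0.07 with PNA-21 (adjusted p = 0.250) and 0.26 ± 0.07 with both (adjusted p = 0.00691). SPC25, the partner of SPC24, was too low to test. The levels of SPC25 were 0.0670, 0.177 and 0.242 CPM in control, 0.362, 0.295 and 0.125 with PNA-10b, 0.177, 0.205 and 0.475 with PNA-21 and 0.287, 0.496 and 0.251 with both strands. These levels come from 50 counts over the 12 libraries, and the groups overlap.

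Spindle and cytokinesis genes were 8, of which 7 were tested, and 4, 6 and 6 rose. ECT2 (ENSG00000114346, chr3:172750682-172821474, plus strand) encodes the exchange factor that activates RhoA at the cleavage furrow. ECT2 reached 129, 139.6 and 133 CPM with PNA-10b, 150.3, 157 and 149 with PNA-21 and 144, 142 and 137 with both, from 106, 117 and 104 in control. The PNA-21 libraries lay above every other library, and the combined libraries overlapped PNA-10b. Its change was 0.30 ± 0.05 with PNA-10b (adjusted p = 0.00191), 0.48 ± 0.05 with PNA-21 (adjusted p = 1.51e-06) and 0.37 ± 0.05 with both (adjusted p = 2.84e-05). ANLN (ENSG00000011426, chr7:36389806-36453791, plus strand) encodes anillin, the scaffold of the contractile ring. ANLN stood at 196, 222 and 213 CPM in the control libraries, 250.2, 251 and 224 with PNA-10b, 271, 266 and 247 with PNA-21 and 284, 281 and 254 with both. The lowest PNA-10b library lay just above the highest control. The change was 0.20 ± 0.06 with PNA-10b (adjusted p = 0.0537), 0.31 ± 0.06 with PNA-21 (adjusted p = 0.000628) and 0.37 ± 0.06 with both (adjusted p = 0.000105). TPX2, which activates Aurora A on the spindle, rose by 0.26, 0.29 and 0.36. DLGAP5, a microtubule-bundling protein of the spindle, rose by 0.26, 0.30 and 0.39, and HMMR, a spindle pole protein and hyaluronan receptor, by 0.36, 0.45 and 0.33. CKAP2, a microtubule-stabilizing protein, had 0.15 ± 0.05 with PNA-10b (adjusted p = 0.103) and rose by 0.21 in both other arms.

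PRC1, which cross-links antiparallel microtubules of the midzone, and NUSAP1, a microtubule-binding protein of the central spindle, had few counts. In control, PRC1 measured 0.804, 1.59 and 1.69 CPM, with 1.45, 1.47 and 2.56 in PNA-10b, 2.01, 2.39 and 1.74 in PNA-21 and 1.43, 1.13 and 1.57 in PNA-10b+21. The PNA-21 libraries lay above the control and the combined libraries, and the other pairs of groups overlapped. PRC1 had 314 counts in all and did not pass in any arm, with changes of 0.43 ± 0.29 with PNA-10b (adjusted p = 0.439), 0.58 ± 0.29 with PNA-21 (adjusted p = 0.136) and 0.03 ± 0.31 with both (adjusted p = 0.955). The levels of NUSAP1 were 0.0670, 0.177 and 0.161 CPM in control, 0.217, 0.589 and 0.375 with PNA-10b, 0.590, 0.205 and 0.528 with PNA-21 and 0.229, 0.566 and 0.251 with both strands. In CPM all treated libraries lay above all controls. Before scaling, control replicate 2, PNA-10b replicate 1 and PNA-21 replicate 2 each held 3 counts. The 64 counts over 12 libraries were too few for the test. In GENCODE release 29, PRC1 shares 57.6% of its exonic length with AC068831.7 on the same strand, and NUSAP1 shares 62.2% with AC087721.2. How reads in shared exons were counted is not given in the sources used here, and its part in these low counts was not tested. AC068831.7, looked up after these values were seen, held 2407 counts and had changes of 0.24 ± 0.11 (adjusted p = 0.249), 0.33 ± 0.11 (adjusted p = 0.0310) and 0.44 ± 0.11 (adjusted p = 0.00589). SPC25 shares no exonic length on its own strand.

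The last pair, a chromosome enzyme and a chromosome surface protein, rose in all 3 arms. TOP2A (ENSG00000131747, chr17:40388516-40417950, minus strand) encodes topoisomerase II alpha, which untangles sister chromatids. TOP2A reached 383, 392 and 338 CPM with PNA-10b, 372, 388 and 373 with PNA-21 and 404, 407 and 369 with both, from 303, 331 and 317 in control. The treated arms overlapped each other and none reached down to control. Its change was 0.23 ± 0.06 with PNA-10b (adjusted p = 0.0207), 0.25 ± 0.06 with PNA-21 (adjusted p = 0.00244) and 0.31 ± 0.06 with both (adjusted p = 0.000409). MKI67 (ENSG00000148773, chr10:128096659-128126385, minus strand) encodes Ki-67, the coat of mitotic chromosomes and a clinical marker of dividing cells. MKI67 stood at 336, 366 and 382 CPM in the control libraries, 473, 437 and 401 with PNA-10b, 468, 441 and 415 with PNA-21 and 518, 509 and 463 with both. The lowest treated value, PNA-10b replicate 3, was closer to control than the others. Its change was 0.27 ± 0.06 with PNA-10b (adjusted p = 0.0136), 0.29 ± 0.06 with PNA-21 (adjusted p = 0.00212) and 0.46 ± 0.06 with both (adjusted p = 2.33e-05).

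Compared per kilobase of exon, the control levels of the members spanned a wide range. UBE2C stood highest at 87.9 ± 4.16 CPM per kb (SD, n = 3). CCNB1 (77.4 ± 2.68) and TPX2 (76.5 ± 2.93) followed and did not differ beyond their spread. CDC25C (3.57 CPM per kb) and SGO1 (3.19) were the lowest of the members with ample counts, and PRC1 (0.247), SPC25 (0.0880) and NUSAP1 (0.0470) lay far below. As a share of all counts, the members together took up 0.365% ± 0.0183 in control, 0.443% ± 0.0226 with PNA-10b, 0.472% ± 0.00507 with PNA-21 and 0.489% ± 0.0311 with both (SD, n = 3).

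Within groups the members differed between libraries. The mean log2 CPM over the 38 tested members was 5.999, 6.122 and 5.998 in the control libraries, 6.326, 6.360 and 6.249 with PNA-10b, 6.406, 6.445 and 6.362 with PNA-21, and 6.468, 6.439 and 6.337 with both. Replicate 3 was the lowest of its group for 25, 27, 24 and 31 of the 38 members in control, PNA-10b, PNA-21 and PNA-10b+21, and control replicate 2 was the highest of its group for 26. No treated library reached down to the control range of this mean.

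**Figure D3:**
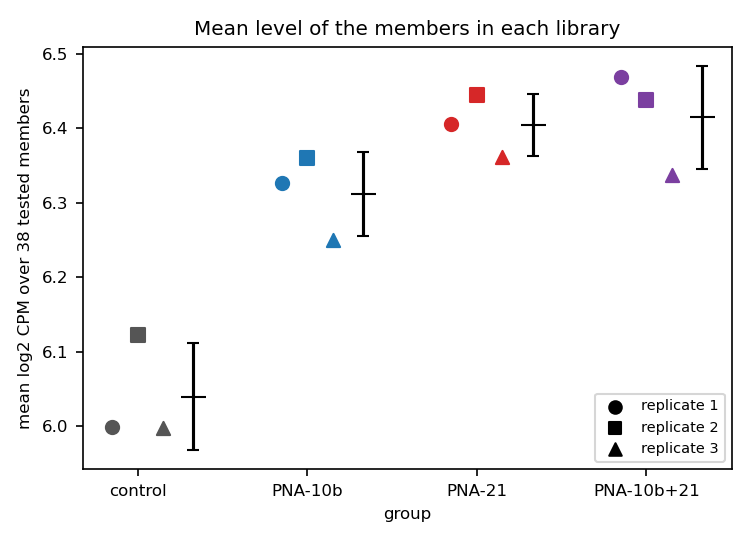
Mean log2 CPM over the 38 tested members (y axis) in each library, by group (x axis). Symbols give the replicate number, the horizontal line and bar beside them the mean and SD of 3 libraries. The control libraries sit between 5.998 and 6.122 and the treated libraries between 6.249 and 6.468.

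The arms were also compared with each other. From PNA-10b to PNA-10b+21, 6 members rose and none fell, where 4.61% of all genes passed as higher and 5.10% as lower. They were ESPL1 (0.30 ± 0.07, adjusted p = 0.00837), AURKA (0.25 ± 0.06), INCENP (0.23 ± 0.06), PTTG1 (0.20 ± 0.05), CCNB1 (0.19 ± 0.06) and CDC25B (0.18 ± 0.05). The count fell to 0 when PNA-10b replicate 3 or PNA-10b+21 replicate 1 was left out, and to 3 when replicate 2 of either arm was. It rose to 12 when PNA-10b+21 replicate 3 was left out. From PNA-10b to PNA-21, CDK1 (0.21 ± 0.06, adjusted p = 0.0425) and ECT2 (0.18 ± 0.05, adjusted p = 0.0391) rose and no member fell, against 2.91% and 3.88% of all genes. This count was 0 with 8 of the 12 libraries left out in turn, namely control replicate 1, PNA-10b replicates 1 and 3, each PNA-21 replicate, and PNA-10b+21 replicates 1 and 2.

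Between PNA-21 and PNA-10b+21 no member passed, and no gene of the 15715 did (0% in each direction) in the quasi-likelihood test. At an unadjusted p under 0.05, 3 of 38 members were higher with both strands (MKI67, INCENP and CENPF) and 1 was lower (MAD2L1). Of all 15715 genes, 1354 stood under that value in either direction. These members are not read as a result of their own. DESeq2 called 25 genes lower and none higher, and a fit of these 6 libraries alone called 47 lower and 1 higher, with no member among them. Leaving out PRC1, the members' changes ran from -0.17 in MAD2L1 to 0.17 in MKI67, with standard errors of 0.052 to 0.099. The outermost ends of their 95% confidence intervals were -0.33 in MAD2L1 and 0.32 in CDC25C. Small differences between these arms may therefore have been missed in single members. Of the 38 members 25 had their largest change with both strands and 13 with PNA-21. The PNA-10b change was the smallest for 31 and the largest for none.

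The combined arm fell short of the sum of the single arms. The median over the members of the summed single-arm changes was 0.60 on the log2 scale, and the median change with both strands was 0.38. Control cells received no nanoparticles, so any response to the carrier enters both single-arm changes and is counted in each. Carrier and strand cannot be told apart in this comparison or in the interaction. The interaction, defined as what PNA-21 added on top of PNA-10b less what it added to control, was negative for 37 of 38 members, with a median of -0.22 against 0.01 over all genes tested. All members draw on the same 12 libraries, so this is 1 pattern rather than 37. Of the members 6 passed the interaction test as lower and none as higher, where 1.64% of all genes passed as lower and 1.48% as higher. These were ECT2 (-0.40 ± 0.07, adjusted p = 0.00864), MAD2L1 (-0.53 ± 0.11), CCNA2 (-0.44 ± 0.10), SGO1 (-0.58 ± 0.13), HMMR (-0.48 ± 0.12) and CDK1 (-0.36 ± 0.09, adjusted p = 0.0353).

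Each of the 6 had its highest group mean with PNA-21. In control, MAD2L1 measured 44.5, 48.1 and 37.3 CPM, with 52.4, 58.3 and 56.1 in PNA-10b, 59.5, 68.6 and 65.9 in PNA-21 and 57.7, 54.6 and 59.7 in PNA-10b+21. The combined libraries of MAD2L1 overlapped PNA-10b, and among them only replicate 3 reached the PNA-21 range. The levels of CCNA2 were 53.96, 64.4 and 52.7 CPM in control, 68.8, 77.6 and 72.1 with PNA-10b, 75.02, 82.7 and 77.5 with PNA-21 and 76.7, 73.8 and 70.4 with both strands. The combined and PNA-10b libraries of CCNA2 covered the same range. SGO1 reached 17.9, 17.4 and 16.1 CPM with PNA-10b, 19.5, 17.8 and 18.1 with PNA-21 and 17.3, 18.3 and 16.01 with both, from 10.99, 13.9 and 11.8 in control. Here the 3 treated arms overlapped. HMMR stood at 62.5, 70.9 and 51.9 CPM in the control libraries, 72.2, 87.8 and 78.8 with PNA-10b, 81.7, 88.4 and 84.1 with PNA-21 and 80.7, 78.2 and 75.2 with both. The HMMR controls were widely spread, with replicate 3 low, and all treated libraries lay above them. The count of 6 fell to 2 without control replicate 1 or 3, 1 without PNA-10b replicate 2, 3 without PNA-21 replicate 2, and 3 or 2 without PNA-10b+21 replicate 2 or 3. It rose to 11 without control replicate 2. ECT2 kept its call in all 19 alternatives that gave an interaction and MAD2L1 in 18.

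**Figure D4:**
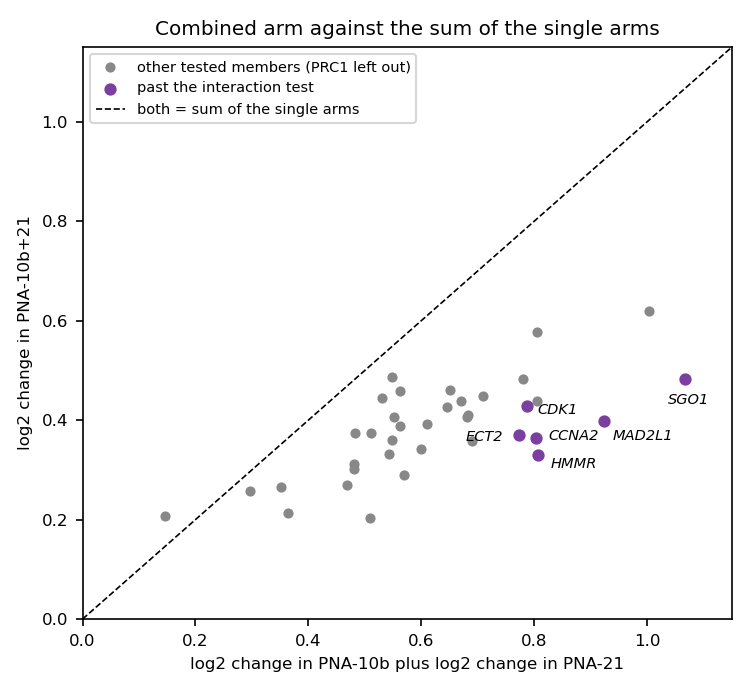
Log2 change with both strands (y axis) against the sum of the log2 changes of the single arms (x axis), 1 point per tested member, PRC1 left out. Points below the dashed line changed less with both strands than the sum. All but CDC25B lie below it, and the 6 named members passed the interaction test.

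Other genes of division were read from 9 lists. Over all genes tested, 2.75%, 15.2% and 13.6% passed as higher with PNA-10b, PNA-21 and both. As lower, 3.74%, 14.6% and 13.4% passed. Of 17 inner kinetochore and centromere loading genes 4, 12 and 9 rose in the PNA-10b, PNA-21 and combined arms and none fell. HJURP, the chaperone that loads CENPA, changed by 0.29 ± 0.07, 0.42 ± 0.07 and 0.45 ± 0.07, CENPI by 0.29, 0.38 and 0.37, and CENPK by 0.25, 0.36 and 0.24. Of 14 tested outer kinetochore and checkpoint genes outside the members 3, 7 and 6 rose and none fell, among them ZWINT (0.23, 0.37 and 0.41), a kinetochore scaffold, TRIP13 (0.31, 0.37 and 0.34), which disassembles the checkpoint complex, and ZWILCH (0.28, 0.45 and 0.33). Among 14 condensin and cohesin genes 3, 11 and 10 rose, and SMC2 fell by 0.18 with PNA-21. CDCA5, sororin, a stabilizer of cohesion, rose by 0.29, 0.52 and 0.51, NCAPD2 by 0.19, 0.27 and 0.34, and NCAPG by 0.27, 0.37 and 0.41.

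Of 17 genes of the anaphase-promoting complex and its regulators 1, 6 and 6 rose, ANAPC5 fell by 0.14 with PNA-21 and ANAPC16 fell by 0.24 with both. UBE2S, the ubiquitin chain-extending enzyme of the complex, rose by 0.30, 0.53 and 0.61. ANAPC13 had 0.10 (adjusted p = 0.381), 0.47 and 0.42, and ANAPC1 0.11 (adjusted p = 0.263), 0.18 and 0.26, with only the latter values of each passing. The list's median change was 0.05, 0.11 and 0.02, next to 0.27, 0.35 and 0.38 for the members.

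Of 12 mitotic entry regulators 2, 10 and 8 rose, with CKS2, a CDK1-binding subunit, at 0.34, 0.56 and 0.53, and PKMYT1, a kinase that restrains CDK1, at 0.33, 0.53 and 0.62. CDC25A, an activating phosphatase, had 0.36 ± 0.12 with PNA-10b (adjusted p = 0.0733) and rose by 0.52 and 0.66. Of 23 tested spindle and cytokinesis genes outside the members 9, 14 and 18 rose. TROAP rose by 0.26, 0.41 and 0.52, and FAM83D by 0.53 and 0.52 with PNA-21 and both. The 1 gene of that list that fell was NUMA1, which encodes the spindle pole protein NuMA, at -0.26 ± 0.05, -0.34 ± 0.05 and -0.30 ± 0.05.

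Of 13 MuvB, B-MYB and pocket protein genes 1, 7 and 5 rose. MYBL2, which encodes B-MYB, rose by 0.25, 0.39 and 0.44, and LIN52 and RBBP4, MuvB subunits, passed with PNA-21 (0.31 and 0.16) and with both (0.44 and 0.18). Of 10 tested G1 cyclins, their kinases and CDK inhibitors 2, 6 and 8 rose. CDK2 rose by 0.26, 0.38 and 0.39, CCND3 by 0.47 and 0.46 and CDK4 by 0.23 and 0.31 in the last 2 arms, and CDK6 fell by 0.27 with both. The replication reference set, 16 genes of DNA synthesis, had 5, 15 and 16 members higher and none lower. RFC3, a clamp loader subunit, rose by 0.30, 0.67 and 0.51, RRM2 by 0.30, 0.53 and 0.50 and MCM3 by 0.23, 0.35 and 0.43. Over the 9 lists the PNA-10b arm had 30 genes higher, which became 9 or 7 without control replicate 1 or 3, and 20 or 5 without PNA-10b replicate 1 or 2, while PNA-21 and both had 88 and 86. In these 2 arms the MuvB list fell most in proportion, to 3 or 4 with PNA-21 without control replicate 3 or PNA-21 replicate 1 or 2, and to 2 or 3 with both strands without control replicate 3 or PNA-10b+21 replicate 1 or 2. Leaving out 1 library also took the PNA-21 counts as low as 10 for the replication set, 8 for the inner kinetochore, 8 for condensin and cohesin and 4 for the anaphase-promoting complex, and the combined count of the outer kinetochore to 4. The lists were read without a test of their own. The median change of the replication set was 0.19, 0.30 and 0.37, next to 0.27, 0.35 and 0.38 for the members. Whether the members differ from replication genes, which rose in the same libraries, was not tested.

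The promoter letters were counted in RefSeq windows of 250 bases before to 50 after each start. A window of this kind was matched for 34 of the 40 members, 44 windows in all. TTTGAA or TTCGAA, the CHR letters, on either strand, stood in 26 of those 34 members (76.5%), against 1667 of 10406 tested genes with a window (16.0%). Counted by window, they stood in 29 of 44 (65.9%), against 16.4% of all 35116 windows. CCAAT, on either strand, stood in 28 members (82.4%), against 43.1% of tested genes. By window it was 75.0% against 34.6% of all windows. Both kinds of letters occurred together in 54.5% of member windows and 6.38% of all windows.

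The positions of the 2 kinds of letters differed, as in the printed windows, which were chosen for that arrangement. Positions were not counted in the windows of other genes, so this placing is not shown to be particular to the members. Of 42 CHR matches in the members 20 began between bases -30 and 9 of the start, and of 71 CCAAT matches 39 began between -110 and -51. In the printed HMMR window TTTGAA stood as a tandem, and in those of CDCA8 and MKI67 TTTGAA ran into ATTGG over a shared base. PRC1, which had few counts, carried both kinds of letters in its window.

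**Figure D5:**
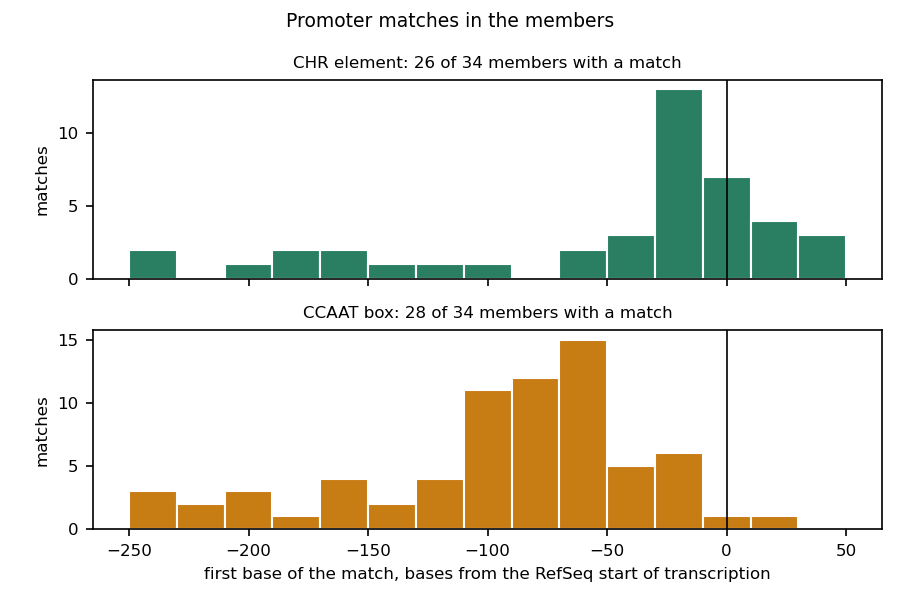
Number of matches (y axis) by distance of their first base from the RefSeq start (x axis, in bases, bins of 20) over 44 windows of 34 members, for the CHR letters (upper panel) and CCAAT (lower panel). A site in overlapping windows of a gene counts in each, and equal distances of the same letters within a gene are drawn once. CHR matches gather at the start and CCAAT matches upstream of it, between -110 and -51.

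The same letters were counted outside the members. Of 884 tested non-member genes with both kinds of letters, 4.86%, 20.4% and 17.8% passed as higher in the PNA-10b, PNA-21 and combined arms. Of 3580 with CCAAT only, 2.91%, 19.5% and 17.1% did, and of 759 with the CHR letters only, 3.16%, 18.8% and 15.4%. Of 5153 with neither, 2.25%, 16.2% and 14.7% did. Genes with both also passed as lower, at 4.98%, 17.1% and 16.2%, and their median log2 changes were 0.01, 0.02 and 0.01. The 884 include genes of the division lists, chosen with earlier results known. Without those lists, 853 genes with both passed as higher at 3.99%, 18.9% and 15.9%. Of 3544 with CCAAT only, 2.77%, 19.0% and 16.7% did. Only with PNA-10b did genes with both then pass as higher more often than genes with CCAAT only. Among the tested members, 15, 17 and 19 of the 20 with both kinds of letters rose, and of the 2 with neither 1, 2 and 2 did. Of the 4 members with the CHR letters only, 2, 4 and 4 rose, and of the 6 with CCAAT only, 4, 6 and 5. The letters are a description of these windows and do not show that a factor binds there.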

How the data were processed

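The mRNA of U87 cells was sequenced in 12 libraries. Per the labels' protocols, total RNA was extracted with the mirVana kit and libraries were made with the TruSeq Stranded mRNA kit. Per the submitters' processing notes, the tools were HISAT2 2.1.0, SAMtools 1.7 and HTSeq 0.11.0, with genome build hg38. Neither the strand setting nor the gene annotation is given in the sources used here. The authors deposited raw counts per Ensembl gene, 35741 genes in 12 columns, each matched to a sample by its name. No pair of columns was identical.

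Members and gene lists were chosen with earlier results of these data known, so no p-value over the members or a list is given. Genes were filtered with filterByExpr of edgeR 4.0.16 (minimum count 10, leaving 15715), scaled by TMM and fitted in 1 quasi-likelihood model of the 4 group means over 12 libraries (R 4.3.3), with a common biological coefficient of variation of 0.0518. Genes were called in 7 comparisons at 0.05 after Benjamini-Hochberg adjustment over all genes tested. Levels are CPM computed from the deposited counts. Values of every library are given, in each of 7 roles, for the 2 members with the smallest p in PNA-10b+21 against control and for members that were not tested or passed in fewer than 2 of the 3 comparisons with control, and were added for the members of the interaction and for AURKB after their values were seen. Of each list the 3 genes with the smallest p over those comparisons are named, and the few that fell. DESeq2 1.42.0 and 19 other settings were alternatives. Replicate numbers were not used as a block. Coordinates, exon lengths and 3′ UTRs are from GENCODE release 29 (GRCh38), in which all 40 members were found. Promoters and the microRNA are from RefSeq (GRCh38.p14).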

Additional observations from a re-analysis of the deposited data

Results flagged for a closer look

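In 6 members the change brought by the second strand differed from the change PNA-21 made in untreated cells, by the interaction test of edgeR's quasi-likelihood fit (3 libraries per group, Benjamini-Hochberg adjustment over 15715 genes). The differences were -0.40 in ECT2, -0.53 in MAD2L1, -0.44 in CCNA2, -0.58 in SGO1, -0.48 in HMMR and -0.36 in CDK1, on the log2 scale. Over all alternatives that gave an interaction, the adjusted p of ECT2 reached at most 0.0422 and that of MAD2L1 at most 0.0581. For CDK1 it reached 0.133 and for HMMR 0.123. Genes outside the members with a lower interaction in the division lists were DEPDC1 (-0.50), RFC3 (-0.46), PBK (-0.39), CKS2 (-0.38), TRIP13 (-0.34), CEP55 (-0.34) and RRM2 (-0.33), and NUMA1 (0.30) was on the opposite side.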

How the results depend on the processing

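All members past the threshold in the main results of the 3 comparisons with control kept a positive sign under the 20 alternatives. The sign turned only in PRC1, which did not pass: its combined-arm change was -0.24 without control replicate 1 and -0.07 without PNA-10b+21 replicate 3, in a range of -0.24 to 0.19 over the libraries left out. With each library left out in turn, the members higher numbered 6 to 31 with PNA-10b, 31 to 35 with PNA-21, 34 to 37 with both, 0 to 12 from PNA-10b to both and 0 to 3 from PNA-10b to PNA-21. The members lower in the interaction numbered 1 to 11, and their median interaction ran from -0.28 to -0.16. From PNA-10b to PNA-21 the count of 2 became 0 with upper-quartile factors, 4 without the filter and 4 in a fit of the groups compared. The interaction count of 6 became 12 without the filter and 10 with DESeq2. With replicate number as a block it became 13, the PNA-10b count 31 and the count from PNA-10b to both 9. Over 12549 genes the deviations of same-numbered libraries from their group means correlated at -0.145 to 0.196 in 18 pairs, with 5 over 0.1, so the numbers were not taken as pairs, although replicate 3 was the lowest for most members in each group. Without the filter 32 genes passed as higher and 300 as lower between PNA-21 and both, no member among them. The cause of these shifts was not tested. The list counts were run under the same settings, a step chosen after seeing the data. PRC1, NUSAP1 and SPC25 had 314, 64 and 50 counts over 12 libraries, which limits the precision of their values, and the cause of the low counts was not tested.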
